A study of Homo sapiens with 4 samples.

Results

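The genes described here are the enzymes that build cholesterol and fatty acids, together with the sensors and transcription factors that control them. They are 33 of the 28930 gene symbols in the table, chosen by symbol from a list of 31 genes of sterol and fatty acid synthesis, to which the late sterol enzymes MSMO1 and SC5D (2 genes) were added. All 33 had enough counts to be tested, as did 13022 symbols in all. By role, 18 make sterols, 5 regulate the pathway or carry sterol, and 10 make, elongate or desaturate fatty acids.

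RNA was sequenced from MDA-MB-231, an established human triple-negative breast cancer line with mesenchymal features, in 2 groups of 2 libraries. One group is labelled siControl, and the other received an siRNA against hTrmt13, a tRNA methyltransferase encoded by TRMT13. No other treatment, dose or time is given in the labels, and nothing says that the libraries numbered 1 and 2 came from separate cultures, so a p-value here reflects library-to-library spread alone, and that spread may be technical. The question put to the data is how the levels of these transcripts compare once hTrmt13 is depleted.

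Cholesterol is made from acetyl-CoA through the mevalonate pathway, which runs from 3-hydroxy-3-methylglutaryl-CoA through isoprenoid diphosphates to squalene and then, on the endoplasmic reticulum, to lanosterol and cholesterol. Fatty acids start from the same acetyl-CoA, released from citrate by ACLY, and are built by acetyl-CoA carboxylase and fatty acid synthase before elongases (ELOVL) and desaturases (SCD, FADS) modify them. Both routes are controlled by the sterol regulatory element-binding proteins (SREBPs), which are held in the endoplasmic reticulum by SCAP and INSIG when sterols are plentiful and released to the nucleus when they are scarce. Breast cancer cells commonly make much of their own fatty acid.

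SREBPs act on promoters beside the trimeric factor NF-Y, which reads the box CCAAT, and Sp1, which reads GC-rich boxes such as GGGCGG. The windows below show such boxes for 6 members, picked among those whose window was free of annotated exons, from the RefSeq promoter table (GRCh38.p14). They leave out ELOVL5, TM7SF2 and PMVK, whose windows overlapped exons. They also leave out some exon-free windows, among them that of IDI1, which held GC boxes alone. They are written 5′ to 3′ on the gene's strand and lie before the most upstream start listed for the gene. Capitals mark a CCAAT box on either strand (ATTGG is the reverse complement) or, for ELOVL6 alone, the GC box.
ELOVL6 (chr4:110198717-110198757, minus strand): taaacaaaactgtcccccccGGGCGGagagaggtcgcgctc
STARD4 (chr5:111512646-111512716, minus strand): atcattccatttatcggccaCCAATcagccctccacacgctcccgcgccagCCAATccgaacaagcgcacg
INSIG1 (chr7:155297688-155297727, plus strand): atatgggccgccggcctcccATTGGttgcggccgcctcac
HSD17B7 (chr1:162790630-162790669, plus strand): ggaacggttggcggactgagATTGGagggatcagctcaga
ACLY (chr17:41919026-41919107, minus strand): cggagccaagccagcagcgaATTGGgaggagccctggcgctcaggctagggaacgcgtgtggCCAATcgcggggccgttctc
SCD (chr10:100346984-100347066, plus strand): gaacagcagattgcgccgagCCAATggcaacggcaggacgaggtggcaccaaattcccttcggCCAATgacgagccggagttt

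Promoter windows of 300 bases (250 before to 50 after a start) were matched for 29 members, and ACAT2, FDFT1, SQLE and FASN were not matched. CCAAT was present on either strand in 22 of the 29 (75.9%), against 39.7% of all 27305 genes in the table and 43.4% of the 9686 tested genes with a window. GGGCGG was present in 27 (93.1%), against 48.3% of all genes and 77.4% of tested genes. The E-box CACGTG was present in 5 (17.2%, against 8.77% of all genes and 12.5% of tested genes), namely ELOVL5, INSIG1, LSS, SC5D and SCAP. The sterol regulatory element, searched as TCACNCCAC, was found in SREBF2 alone (3.45%, against 1.39% of all genes and 1.56% of tested genes). Only this string was searched, so a window without it was not shown to lack the element. Each motif was counted on its own, whether or not matches overlapped, and a match is a description of the window, not a bound site.

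Total counts ran from 9777267 to 13098985 per library. TRMT13, which checks the labels, stood at 14.9 and 18.9 CPM (each gene's share of the library, scaled by TMM) in control and at 3.52 and 4.79 CPM after the knockdown, and fell by 2.02 on the log2 scale (SE 0.34, edgeR quasi-likelihood adjusted p = 0.0399). The line's defining pattern was present, with 16945 to 24632 counts of the mesenchymal filament gene VIM, 0 or 1 count of CDH1, and 0 counts of the estrogen receptor gene ESR1 in each library. Of the adipocyte markers, ADIPOQ and LEP had 0 counts and PLIN1 and CIDEC 6 to 19, and the 4 hepatocyte markers had 0 or 1 count in each library. Markers of luminal epithelium reached at most 142 counts, of blood 12 and of endothelium 55. Of these, 4 that had enough counts to be tested were lower in both knockdown libraries, none past the threshold, namely the luminal genes GATA3 (log2 fold change −0.93), FOXA1 (−0.75) and EPCAM (−0.98) and the endothelial gene KDR (−1.34; edgeR adjusted p from 0.149 to 0.249 over the 4), and their part in the results was not tested. In bulk RNA, fewer cells of a type and less RNA per cell cannot be told apart.

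One member changed past the threshold of an adjusted p of 0.05 in the knockdown, the fatty acid elongase gene ELOVL6, which fell 3.29-fold. Over all tested genes 2.99% were called (1.03% higher and 1.96% lower), so 1 of 33 (3.03%) is a share near the background. ELOVL5, another elongase gene, was 3.08-fold lower with groups that did not overlap, but its adjusted p of 0.0576 in the edgeR quasi-likelihood test lay just above the threshold. No member was called higher by edgeR; at an unadjusted p under 0.05 there were 2 higher (PMVK and TM7SF2) and 4 lower (ELOVL6, ELOVL5, STARD4 and HSD17B7), while DESeq2 called 1 higher and 2 lower. These 6 are 18.2% of the members, where 24% of all tested genes had such a p. DESeq2 called 458 higher and 671 lower over all 13022 tested genes. The median log2 fold change was 0.088 over the members and 0.0053 over all tested genes. It was 0.20 for the sterol synthesis genes (13 of 18 positive) and −0.24 for the fatty acid genes (7 of 10 negative).

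**Figure D1:**
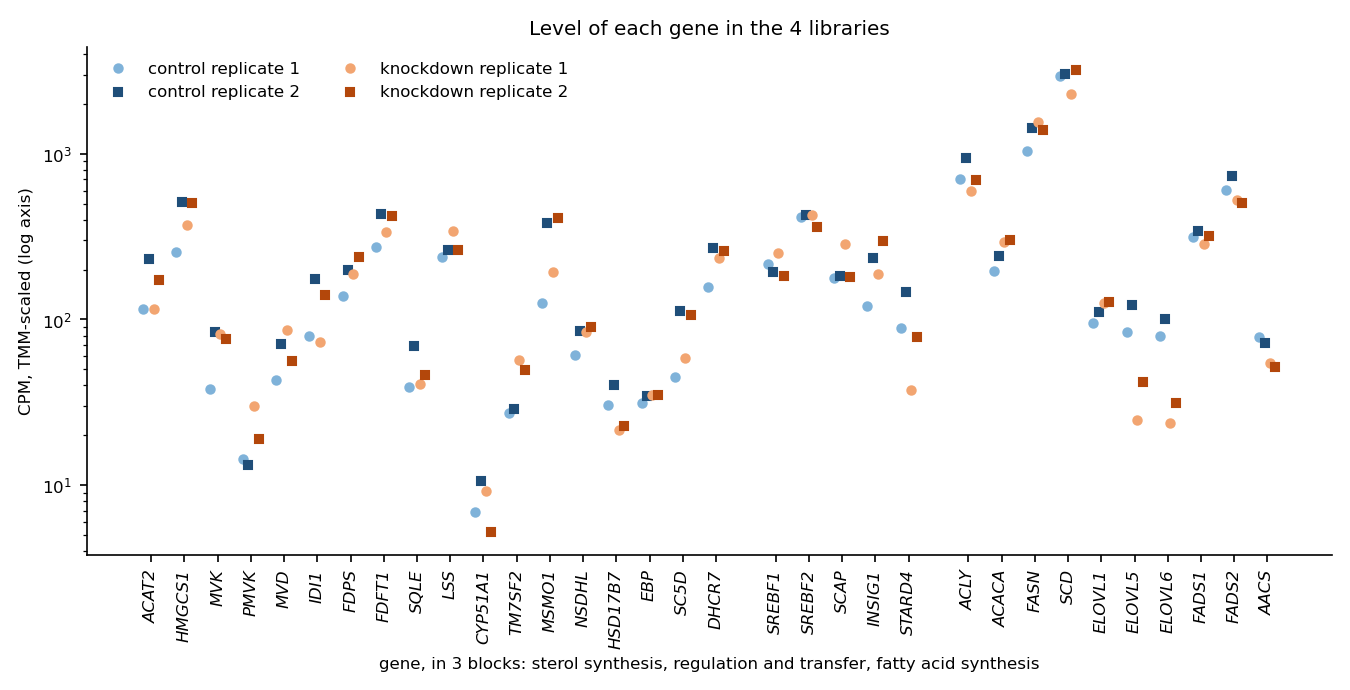
Level of each of the 33 genes in each library, as TMM-scaled CPM on a log axis, with control in blue, knockdown in orange, replicate 1 as circles and replicate 2 as squares. ELOVL5 and ELOVL6 have both orange points well below both blue points, while for MSMO1, SC5D and IDI1 the squares lie above the circles in both colours.

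Elongation of fatty acids held the largest differences. ELOVL6, which extends the palmitate made by fatty acid synthase to stearate, stood at 79.4 and 101.3 CPM in control replicates 1 and 2, against 23.6 and 31.2 CPM in knockdown replicates 1 and 2. Both knockdown libraries were far below both control libraries, and the groups (90.3 ± 15.4 and 27.4 ± 5.41 CPM, SD, n = 2) differed by a log2 fold change of −1.72 (95% interval −2.36 to −1.08, SE 0.27, edgeR adjusted p = 0.0357). ELOVL6 passed the threshold in all 11 alternatives run (adjusted p from 1.14e-08 to 0.0405), and its log2 difference was −1.75 between the libraries numbered 1 and −1.69 between those numbered 2.

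ELOVL5, which elongates polyunsaturated fatty acids, stood at 84.1 and 121.7 CPM in control, against 24.6 and 42.0 CPM in knockdown. The groups did not overlap, and the log2 fold change was −1.63 (95% interval −2.43 to −0.83, SE 0.34, edgeR adjusted p = 0.0576). It passed in 8 of the 11 alternatives, including each of the 4 that left out a library (−2.06 to −1.29), upper-quartile scaling and DESeq2, and did not pass with DESeq2 size factors in edgeR, library size alone or limma-voom (largest adjusted p = 0.0638). The third elongase gene among the members went the other way in value. ELOVL1, which makes saturated very long chains, stood at 94.8 and 111.2 CPM in control, against 125.2 and 127.5 CPM in knockdown, which is 0.29 on the log2 scale (95% interval −0.21 to 0.80, edgeR adjusted p = 0.441).

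**Figure D2:**
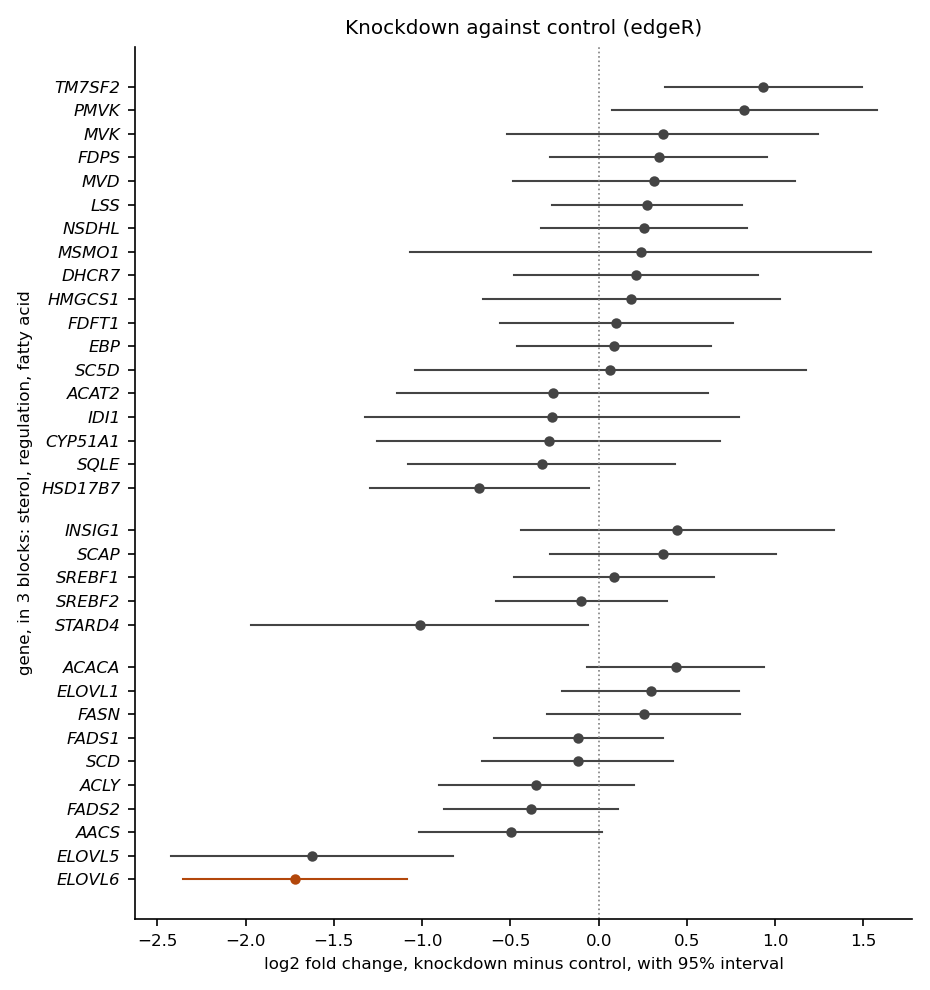
Log2 fold change of each gene, knockdown minus control, as a point with its 95% interval from the edgeR fit, in 3 blocks of sterol, regulatory and fatty acid genes. ELOVL6, in orange, is the 1 gene past the threshold, and the intervals of ELOVL5, STARD4, HSD17B7, PMVK and TM7SF2 also lie to one side of the dotted line at 0.

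The desaturase genes showed smaller differences. SCD, the delta-9 desaturase that makes oleate and palmitoleate, stood at 2935 and 3016 CPM in control, against 2288 and 3198 CPM in knockdown. The knockdown libraries lay on either side of the control libraries (log2 fold change −0.12, 95% interval −0.66 to 0.42, edgeR adjusted p = 0.795). FADS1 and FADS2, neighbouring genes for the delta-5 and delta-6 desaturases of polyunsaturated fatty acids, have exons that overlap on opposite strands. Without a known strand setting their reads cannot be kept apart there. FADS2 also shares exonic sequence with FEN1 on the same strand, where a strand setting would not separate the reads. The value of FEN1 itself was −0.73 on the log2 scale (SE 0.50, edgeR adjusted p = 0.419). FADS2 stood at 605.9 and 735.4 CPM in control, against 526.2 and 502.1 CPM in knockdown, lower in both but not past the threshold (−0.38, SE 0.21, edgeR adjusted p = 0.313). FADS1 was at 314.2 and 341.4 CPM against 286.0 and 319.6 CPM, with overlapping groups (−0.11, SE 0.20, edgeR adjusted p = 0.772).

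The enzymes that supply and assemble the acyl chain did not share a direction. ACLY, which releases acetyl-CoA from citrate in the cytosol, stood at 704.2 and 948.6 CPM in control, against 595.2 and 698.8 CPM in knockdown. Its groups lay apart by a narrow margin (−0.35, SE 0.23, edgeR adjusted p = 0.401). ACACA, the acetyl-CoA carboxylase that commits carbon to fatty acids, stood at 197.2 and 241.1 CPM in control, against 292.2 and 300.7 CPM in knockdown, higher in both knockdown libraries (0.44, SE 0.21, edgeR adjusted p = 0.264). FASN, the fatty acid synthase itself, was at 1045 and 1431 CPM in control, against 1565 and 1389 CPM in knockdown, with overlapping groups (0.26, SE 0.23, edgeR adjusted p = 0.544). AACS, which activates acetoacetate for lipid synthesis, was at 77.9 and 72.6 CPM in control, against 55.0 and 51.5 CPM in knockdown. Each of its groups was tight and they did not overlap, but the difference did not pass the threshold (−0.50, 95% interval −1.02 to 0.02, edgeR adjusted p = 0.222).

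In the 18 sterol synthesis genes the 2 control libraries differed more than the groups did. These genes took 0.168% of all counts in control replicate 1 and 0.304% in control replicate 2, and 0.234% and 0.297% in knockdown replicates 1 and 2. The lowest and the highest library were thus both controls. Of the 18, 14 had overlapping groups (77.8%, against 45.7% of all tested genes, 54.3% being apart), 3 were higher and 1 lower in both knockdown libraries, and edgeR called 0 (2 higher and 1 lower at an unadjusted p under 0.05, and 1 higher by DESeq2). The 3 with an unadjusted p under 0.05 are 16.7% of the 18, beside 24% of all tested genes.

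**Figure D3:**
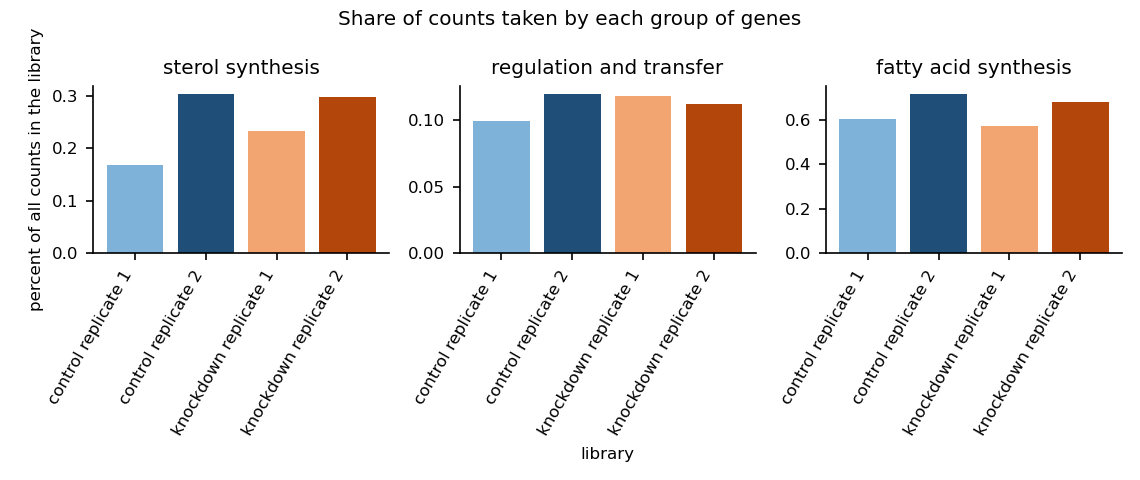
Percent of all counts in each library taken by the 18 sterol synthesis genes, the 5 regulatory genes and the 10 fatty acid genes, as bars from 0, each panel on its own scale. The sterol bars run from 0.168% in control replicate 1 to 0.304% in control replicate 2, with both knockdown libraries between them.

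The first steps build mevalonate and its diphosphates. ACAT2, a cytosolic thiolase that joins acetyl-CoA units, stood at 114.9 and 231.8 CPM in control, against 116.3 and 173.4 CPM in knockdown, and its exons overlap those of TCP1 on the opposite strand. HMGCS1, the HMG-CoA synthase, stood at 256.1 and 514.5 CPM in control, against 369.6 and 507.0 CPM in knockdown. In both genes the libraries numbered 2 were the higher ones in each group, and the log2 fold changes were −0.26 (SE 0.37, edgeR adjusted p = 0.715) and 0.19 (SE 0.35, edgeR adjusted p = 0.791).

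The kinases and the decarboxylase that follow had positive values. MVK, mevalonate kinase, stood at 38.2 and 84.0 CPM in control, against 81.3 and 76.0 CPM in knockdown, so that control replicate 1 alone was low (0.36, SE 0.37, edgeR adjusted p = 0.596). Its exons overlap those of MMAB on the opposite strand, whose own value was 0.82 (SE 0.24, edgeR adjusted p = 0.113). The part of shared reads was not tested. PMVK, phosphomevalonate kinase, stood at 14.4 and 13.2 CPM in control, against 30.1 and 19.0 CPM in knockdown, with both knockdown libraries higher (0.82, 95% interval 0.07 to 1.58, edgeR adjusted p = 0.177). MVD, the decarboxylase, was at 42.9 and 71.5 CPM in control, against 86.4 and 56.0 CPM in knockdown, and its groups overlapped (0.31, SE 0.34, edgeR adjusted p = 0.616).

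Of the isoprenoid, squalene and lanosterol enzymes, IDI1, FDPS, FDFT1 and SQLE differed more in value by replicate number than by knockdown, and LSS did not. IDI1, the isopentenyl diphosphate isomerase, stood at 79.1 and 176.6 CPM in control, against 73.1 and 139.7 CPM in knockdown (−0.27, SE 0.45, edgeR adjusted p = 0.760). FDPS, farnesyl diphosphate synthase, stood at 139.5 and 199.3 CPM in control, against 189.3 and 239.3 CPM in knockdown (0.34, SE 0.26, edgeR adjusted p = 0.469). FDFT1, squalene synthase, was at 272.4 and 432.1 CPM against 335.7 and 420.0 CPM (0.10, SE 0.28, edgeR adjusted p = 0.863). In IDI1, FDPS and FDFT1 each group had its higher library under number 2. SQLE, the squalene epoxidase, stood at 39.1 and 69.5 CPM in control, against 40.8 and 46.2 CPM in knockdown (−0.32, SE 0.32, edgeR adjusted p = 0.582), and LSS, lanosterol synthase, at 236.6 and 263.3 CPM against 343.1 and 261.3 CPM (0.27, SE 0.23, edgeR adjusted p = 0.506).

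Among the enzymes that turn lanosterol into cholesterol, TM7SF2 and HSD17B7 stood apart by group and in opposite directions. TM7SF2, a sterol delta-14 reductase, stood at 27.1 and 28.7 CPM in control, against 56.9 and 49.7 CPM in knockdown. The log2 fold change was 0.93 (95% interval 0.37 to 1.49, SE 0.23), and the edgeR adjusted p of 0.0790 did not pass, although it did by DESeq2 (0.0416) and by edgeR when low counts were left unfiltered (0.0282). Its exons overlap those of VPS51 on the same strand, whose own value was −0.25 on the log2 scale (SE 0.24, edgeR adjusted p = 0.567). HSD17B7, a 3-ketosteroid reductase that also acts on estrone, stood at 30.4 and 40.2 CPM in control, against 21.5 and 22.7 CPM in knockdown, lower in both knockdown libraries (−0.68, 95% interval −1.29 to −0.06, edgeR adjusted p = 0.179). It has a near-identical pseudogene, so its reads may be shared.

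The other late enzymes showed no separation of the groups except EBP, whose margin was very small. MSMO1, the C4-methylsterol oxidase, stood at 126.4 and 384.6 CPM in control, against 193.4 and 409.7 CPM in knockdown, and SC5D, the delta-5 sterol desaturase, at 45.2 and 112.1 CPM against 58.7 and 106.2 CPM. Both differed between the control libraries by log2 values of 1.60 and 1.31, and by log2 fold changes of 0.24 (SE 0.55) and 0.07 (SE 0.47) between the groups. CYP51A1, the lanosterol demethylase, was at 6.89 and 10.6 CPM in control, against 9.22 and 5.24 CPM in knockdown (−0.28, SE 0.41). NSDHL, a sterol dehydrogenase, was at 60.8 and 84.7 CPM against 84.2 and 89.8 CPM (0.26, SE 0.25), DHCR7, which makes cholesterol from 7-dehydrocholesterol, at 156.8 and 269.4 CPM against 235.3 and 258.6 CPM (0.21, SE 0.29), and EBP, the sterol isomerase, at 31.5 and 34.3 CPM against 34.9 and 35.1 CPM (0.09, SE 0.23). The largest and smallest edgeR adjusted p among these 6 were those of SC5D (0.951) and NSDHL (0.570).

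The transcription factor genes themselves differed little. SREBF1, whose product leans toward fatty acid genes, stood at 215.2 and 193.8 CPM in control, against 252.5 and 182.2 CPM in knockdown (0.09, 95% interval −0.48 to 0.65, edgeR adjusted p = 0.861). SREBF2, whose product leans toward sterol genes, stood at 412.5 and 429.7 CPM in control, against 425.3 and 361.9 CPM in knockdown (−0.10, 95% interval −0.58 to 0.39, edgeR adjusted p = 0.811). These intervals leave room for changes of up to 0.65 on the log2 scale in SREBF1, so a p that misses the threshold does not show that the levels were equal. SREBP activity depends on cleavage of the protein, which RNA levels do not measure.

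SCAP, the escort protein that senses cholesterol, stood at 178.8 and 183.3 CPM in control, against 286.4 and 179.2 CPM in knockdown, so that knockdown replicate 1 alone was high (0.36, SE 0.27, edgeR adjusted p = 0.459). INSIG1, which retains SCAP in the endoplasmic reticulum and is itself an SREBP target, was at 119.9 and 235.5 CPM against 188.4 and 296.2 CPM, with overlapping groups (0.45, SE 0.37, edgeR adjusted p = 0.509), and its value ran from 0.051 to 1.01 when 1 library was left out. STARD4, a carrier that moves cholesterol between membranes, stood at 89.1 and 146.0 CPM in control, against 37.8 and 78.6 CPM in knockdown. Both knockdown libraries were lower, the log2 fold change was −1.01 (95% interval −1.97 to −0.06, SE 0.40), and the edgeR adjusted p of 0.189 did not pass. STARD4 passed in 4 of the 11 alternatives, among them those without control replicate 1 (−1.32, edgeR adjusted p = 0.0265) or knockdown replicate 2 (−1.64, 0.0314) and that with low counts left unfiltered (−1.01, 0.00630). Without control replicate 2 its value was −0.61 (edgeR adjusted p = 0.469), and without knockdown replicate 1 it was −0.58 (0.387).

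The difference between the libraries numbered 2 and those numbered 1 was then read from an additive edgeR model of group and replicate number, which has 1 residual degree of freedom. It compares libraries, not conditions of the study. The comparison was added because earlier results of these same libraries showed the sterol median to move with the library left out. Its counts and p-values therefore describe a pattern already seen and are not separate support for it. Of the 33 members, 12 were higher in replicate 2 (36.4%) and 0 lower (0 lower also at an unadjusted p under 0.05 and by limma-voom; 10 higher with DESeq2 size factors and 13 with no filter), where over all tested genes 12.5% were called higher and 10.9% lower (23.4% in all). The sterol synthesis genes held 9 of the 12, namely MSMO1, SC5D, IDI1, ACAT2, HMGCS1, SQLE, FDFT1, DHCR7 and FDPS, and the others were STARD4, INSIG1 and ELOVL5. MSMO1 had the largest difference, at 2.54-fold (log2 1.34, SE 0.17, edgeR adjusted p = 2.1e-06), followed by SC5D at 2.12-fold and IDI1 at 2.07-fold. STARD4 (log2 0.88), INSIG1 (0.81), ACAT2 (0.79), HMGCS1 (0.73), ELOVL5 (0.64), SQLE (0.51) and FDFT1 (0.49) came next, with edgeR adjusted p from 0.000322 to 0.0354. FDPS (0.43, edgeR adjusted p = 0.0449) and DHCR7 (0.46, 0.0468) were the 2 nearest the threshold. The group term of the same model called 9 members (27.3%), beside 40.1% of all tested genes.

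**Figure D4:**
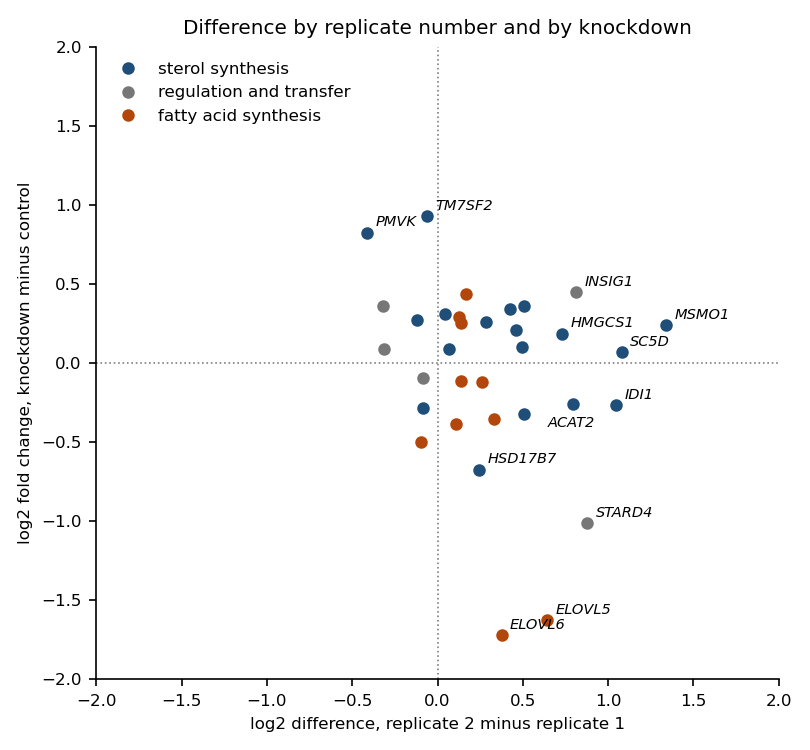
Each gene's log2 difference between replicate 2 and replicate 1 (horizontal, additive edgeR model) against its log2 fold change in the knockdown (vertical). Sterol genes (blue) spread to the right along the horizontal axis, out to 1.34 for MSMO1, while ELOVL5 and ELOVL6 (orange) lie lowest on the vertical axis.

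For 11 of the 18 sterol synthesis genes the difference by replicate number exceeded the difference by knockdown (61.1%, against 41.6% of all tested genes), while this held for 2 of the 10 fatty acid genes. That comparison set replicate values from the additive model against knockdown values from the fit without replicate number. The replicate difference was larger in control than in knockdown, with median log2 values of 0.70 and 0.12 over the 18 genes (0.03 and 0.002 over all tested genes). Control replicate 1 was the highest library in 0 of the 18 and control replicate 2 in 10, against 24.3% and 24.6% of all tested genes. As a result, the knockdown difference within equal replicate numbers was positive in 16 of 18 sterol genes for the libraries numbered 1 (median 0.45) and in 6 of 18 for those numbered 2 (median −0.05). Over all tested genes it was positive in 49.7% for number 1 and in 49.1% for number 2. In the fatty acid genes it was positive in 3 of 10 for either number, with medians of −0.22 and −0.27. Without control replicate 1 the sterol median was −0.15, and without control replicate 2 it was 0.57, so its sign rests on which control library is kept. The libraries numbered 2 were also the deeper ones (12851510 and 13098985 counts, against 9777267 and 10606149) and had the lower share of mitochondrial counts (4.82% and 5.18%, against 6.88% and 6.26%), and the part of either in these differences was not tested.

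Among members with a promoter window, CCAAT was present in all 9 of those called higher in replicate 2 and in 13 of the other 20. GGGCGG was present in 8 of the 9 and 19 of the 20, CACGTG in 3 and 2, and TCACNCCAC in 0 and 1. The 2 STARD4 boxes and the INSIG1 box shown above belong to the first set, and ELOVL6, which has no CCAAT in its window, to the second. This split was looked at after the differences were known and is a description.

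Levels of different genes were compared only per length, as CPM per kilobase of the union of exons in GENCODE 29. In control SCD stood highest on this scale at 554.9, followed by ACLY at 188.8, FASN at 144.5 and FADS2 at 134.7. The FASN control libraries (122 and 167.1) overlapped those of ACLY (160.8 and 216.7), FADS2, HMGCS1 and MSMO1, so the place of FASN among them is not resolved. In the knockdown the FASN mean of 172.4 lay above that of ACLY (147.8). FADS2 overlapped the highest sterol genes, with 121.7 and 147.7 in its control libraries against 72.7 and 146 for HMGCS1, and in the knockdown its mean of 103.3 lay below those of FDPS (130.1), HMGCS1 (124.3) and MSMO1 (119). HMGCS1 at 109.3, FDPS at 102.9 and MSMO1 at 100.8 led the sterol genes, and their single libraries overlapped (from 49.9 to 151.8 in MSMO1), so their order is not resolved. SREBF2 stood at 78.5 and SREBF1 at 45.5, with no overlap of their libraries. At the low end were ELOVL6 at 13.6, PMVK at 10.8 and CYP51A1 at 2.61. Exons of CYP51A1 overlap those of AC000120.2 and AC000120.3 on the same strand and of CYP51A1-AS1 on the opposite strand. Its low level may therefore reflect how shared reads were counted, which was not tested. In the knockdown ELOVL6 stood at 4.13 and ELOVL5 at 9.56 (29.5 in control), while TM7SF2 stood at 15.8 and 16.7 in the control libraries and at 33.0 and 28.9 in the knockdown libraries.

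Other genes of lipid metabolism were read from lists of 83 genes, of which 76 were tested. Over the 76, edgeR called 1 higher and 1 lower (1.32% each), beside 1.03% and 1.96% of all tested genes. At an unadjusted edgeR p under 0.05 there were 17 (22.4%), beside 24% of all tested genes. DESeq2 called 458 higher and 671 lower over all 13022 tested genes. Among 13 genes of SREBP processing and turnover, ERLIN1 rose and 0 fell (2 higher and 1 lower at an unadjusted p under 0.05, and 2 higher and 0 lower by DESeq2). The 1 called higher is 7.69% of this list, and 23.1% of the list had an unadjusted p under 0.05. ERLIN1, a sterol-binding scaffold protein of the endoplasmic reticulum that takes part in the breakdown of membrane proteins and restrains SREBP, stood at 56.9 and 72.2 CPM in control, against 145.5 and 155.9 CPM in knockdown. Both knockdown libraries lay above both controls (2.33-fold, log2 fold change 1.22, SE 0.23, edgeR adjusted p = 0.0454). The call ended without control replicate 1 (1.07, edgeR adjusted p = 0.114) and held in the other 10 alternatives.

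Genes for the uptake, traffic, storage and export of cholesterol were lower in value more often than not, with 10 of 13 tested values negative and a median of −0.65, beside 49.6% negative over all tested genes. ABCG1 fell and 0 rose (0 higher and 5 lower at an unadjusted p under 0.05, and 0 higher and 2 lower by DESeq2). The 1 called lower is 7.69% of this list, beside 1.96% of all tested genes. Those 5 are 38.5%, where 12.5% of all tested genes were lower at such a p. ABCG1, a transporter that exports sterol from cells and a target of the liver X receptors, stood at 15.8 and 9.67 CPM in control, against 1.81 and 1.72 CPM in knockdown. It was 7.16-fold lower with no overlap (−2.84, SE 0.40, edgeR adjusted p = 0.0310), and it passed in all 11 alternatives.

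In the remaining lists edgeR called 0 genes. Of 14 isoprenoid branch genes, 3 were higher and 0 lower at an unadjusted p under 0.05 (21.4%, beside 24% of all tested genes). By DESeq2 2 were called higher. ICMT, which methylates prenylated proteins, stood at 47.0 and 84.1 CPM against 160.6 and 202.9 CPM (1.47, edgeR adjusted p = 0.0607), and PDSS2, a subunit of the synthase for the ubiquinone tail, at 7.52 and 11.8 CPM against 21.3 and 24.0 CPM (1.22, 0.0882). Of 21 further fatty acid genes, 2 were higher and 2 lower at an unadjusted p under 0.05 (19%, again beside 24%). By DESeq2 1 was called higher. ME1, the malic enzyme that supplies NADPH, stood at 23.0 and 30.2 CPM against 57.0 and 69.0 CPM (1.24, edgeR adjusted p = 0.0588), and ELOVL3, another elongase gene, at 1.57 and 2.01 CPM against 0.476 and 0.150 CPM (−2.55, 0.0801), on few counts.

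Among 7 late sterol and precursor enzymes, 1 was higher at an unadjusted p under 0.05 (14.3%, beside 24% of all tested genes). DESeq2 called 0. ACAT1, the mitochondrial thiolase, stood at 50.7 and 64.7 CPM against 89.2 and 118.9 CPM (0.85, edgeR adjusted p = 0.115). Among 8 glycerolipid genes, 1 was higher at an unadjusted p under 0.05 (12.5%, again beside 24%), and DESeq2 called 0. AGPAT1, an acyltransferase of phosphatidic acid synthesis, stood at 116.7 and 112.9 CPM against 193.9 and 161.2 CPM (0.63, edgeR adjusted p = 0.142), and LPIN3, a phosphatidate phosphatase, at 83.6 and 45.6 CPM against 61.6 and 33.5 CPM (−0.44, 0.544).

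Exons of 14 of the 33 members overlap those of another gene in GENCODE 29 (GRCh38), 13 of them on the opposite strand. Among these 13 are ACAT2, MVK, IDI1, CYP51A1, STARD4, ACLY, FADS1 and FADS2. ELOVL5, ELOVL6, PMVK, HSD17B7 and AACS have no such overlap.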

How the data were processed

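RNA-seq counts from 4 libraries of MDA-MB-231 (2 siControl, 2 hTrmt13 siRNA) were used. The authors deposited 1 table of whole-number counts by gene symbol. Per the submitters' processing notes, STAR 2.5.2b, HTSeq 0.6.1, cutadapt and limma were used and hg19 and GRCh37 were the builds, with no step tied to a tool. Not given in the sources used here were the annotation, the strand setting and any filter.

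Each library took its group from its label. The test was that of edgeR 4.0.16 under R 4.3.3 (TMM, filterByExpr with minimum count 10 and minimum total 15, quasi-likelihood test, Benjamini-Hochberg adjustment over 13022 genes, threshold 0.05). The SE is the log2 fold change divided by the root of F, and intervals are 95%. The difference between replicate numbers came from the model with group and replicate. Log2 CPM differences between single libraries used a prior count of 2. DESeq2 1.42.0 and limma 3.58.1 (voom) were alternatives, beside other scalings, no filter, a replicate block and leaving out each library. The edgeR script was tested on simulated data.

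The members, the lists and the comparison of replicate numbers were chosen with earlier results of these data known. All members were described, and from each further list the called genes (up to 4) or else the 2 with the smallest p. One result that this rule names is not reported here. Promoters (RefSeq, GRCh38.p14) and exon lengths (GENCODE 29, GRCh38) are from another build than the counts and were joined by symbol. Only promoter windows free of GENCODE 29 exons were printed.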

Additional observations from a re-analysis of the deposited data

How the results depend on the processing

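With 2 libraries per group, the median 95% interval of a member reached 0.64 on the log2 scale to either side of its value. Under other scalings, no filter, DESeq2, limma-voom and the replicate block, no member changed direction. The genes called over the whole table numbered 134 higher and 255 lower, against 826 and 1123 with no filter on low counts and 458 and 671 by DESeq2. Leaving out a library gave 181 to 324 higher and 314 to 503 lower. Members called higher numbered 0, against 1 with no filter, 1 by DESeq2 (TM7SF2 in both) and 0 to 1 when a library was left out (MSMO1, 1.26, adjusted p = 0.0286, without control replicate 2). Members called lower numbered 1, against 2 with upper-quartile scaling, 3 with no filter, 2 by DESeq2 and 2 to 3 when a library was left out. ELOVL6 was among them each time.

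Equal replicate numbers deviated together (r = 0.639 across 13022 genes, 0.623 across the 33 members), a hint from the data. The running numbers in the library titles are adjacent within a replicate number, but the labels do not say what a replicate number marks. With the replicate number as a block, 2517 genes were called higher and 2710 lower (40.1% of those tested), and among the members 4 were higher (ACACA, INSIG1, PMVK and TM7SF2) and 5 lower (AACS, ELOVL5, ELOVL6, HSD17B7 and STARD4), with adjusted p from 1.14e-08 for ELOVL6 to 0.0249 for ACACA. Of these 9, 8 did not pass without the block.

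Leaving out each library gave medians from −0.13 to 0.38 over the members, −0.15 to 0.57 over the sterol synthesis genes and −0.36 to −0.11 over the fatty acid genes. The ranges of single genes whose sign turned were as follows.
Without 1 library the log2 fold change ran for ACAT2 from −0.67 to 0.33, HMGCS1 from −0.22 to 0.78, MVK from −0.087 to 1.04, MVD from −0.029 to 0.73, IDI1 from −0.81 to 0.43 and FDFT1 from −0.18 to 0.47. Without 1 library the log2 fold change ran for SQLE from −0.67 to 0.15, CYP51A1 from −0.74 to 0.072, MSMO1 from −0.40 to 1.26, SC5D from −0.43 to 0.87, DHCR7 from −0.12 to 0.66 and SREBF1 from −0.17 to 0.30. Without 1 library the log2 fold change ran for SREBF2 from −0.22 to 0.014, SCAP from −0.014 to 0.66 and SCD from −0.38 to 0.11. With no change of sign, FASN ran from 0.054 to 0.50, ACLY from −0.54 to −0.12, FDPS from 0.11 to 0.62, LSS from 0.066 to 0.46 and NSDHL from 0.046 to 0.52.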
